A study of Brassica rapa subsp. pekinensis with 10 samples.

Results

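The features described here stood lower in every array of cold-stressed Chinese cabbage (Brassica rapa subsp. pekinensis) than in either unstressed array. A feature is a set of array probes, usually 7, designed to 1 cabbage sequence and given 1 intensity. A feature belonged to the set if its highest log2 intensity over the 8 cold arrays lay at least 0.6 log2 units below the lower of the 2 normal arrays. Of 47548 cabbage features, 179 met this rule, which is 0.376%. Members were chosen by their cold and normal values, so the distance from normal is given as a description without a test.

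The study measured total RNA of 2 varieties, Man-Su and Shin-Hong, on one-colour NimbleGen arrays. Each variety had 1 array labelled normal and 1 array at 15, 30, 60 and 120 min of cold stress, 10 arrays in all, and the labels call both varieties wild type. No group had a replicate, and the labels do not say whether an array held 1 plant or a pool. The sources used here do not give tissue, temperature or plant age. In bulk RNA, fewer cells of a type and less RNA per cell cannot be told apart.

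Cold is sensed by plants within minutes, through stiffer membranes and calcium entry. The best known response is a rise of transcription factors and protective proteins. Transcripts that go down in cold often belong to growth and photosynthesis, which slow at low temperature. A transcript level goes down when decay outpaces synthesis. The files pair no feature with a gene name, and 0 of the IDs matched the RefSeq gene table of assembly CAAS_Brap_v3.01. The members therefore cannot be placed in pathways, no sequence can be shown, and the IDs of 4 members are printed.

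All 10 arrays had similar overall levels. The median over all features was 12.02 to 12.08 log2 units. The random-sequence control, a measure of background, read 5.13 in Man-Su normal, 5.25 in Shin-Hong normal and 5.23 to 5.74 after cold. The 5 barcode controls averaged 8.55 ± 0.44 (SD, n = 8) in cold arrays and 8.01 in normal arrays. They read 7.88 in Man-Su normal and 8.13 in Shin-Hong normal. In cold they ran from 7.82 in Man-Su cold 120 min to 8.98 in Shin-Hong cold 120 min. The rule holds every member low in all 8 cold arrays, whatever the control level there. The part of the control level in the result was not tested. Which variety each normal array holds is in doubt: of the 10612 features called between varieties in cold, 16.5% differed in the same direction in the normal arrays as labelled.

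The set was small and its size depended on the margin. At a margin of 0.4 it held 512 features, at 0.8 it held 57, and at 1.0 it held 18. The opposite rule, every cold array at least 0.6 log2 units above both normal arrays, gave 651 features, or 1.37%. By any margin, all 8 cold arrays lay below both normal arrays in 4078 features (8.58%) and above both in 5852 (12.3%). The lowered set was thus smaller than the raised one at every margin computed, from 0.2 to 1.4.

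**Figure D1:**
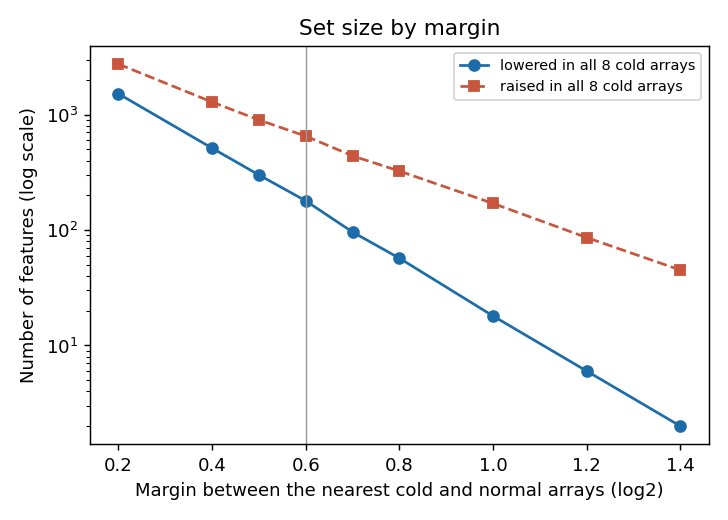
Number of features (log scale) whose 8 cold arrays all lie below (circles) or above (squares) both normal arrays, by the margin between the nearest arrays in log2 units. The grey line marks the margin of 0.6, with 179 lowered and 651 raised features, and at 1.4 the counts are 2 and 45.

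The threshold passed through a continuum. The member just inside had a margin of 0.6009 log2 units, with 11.78 and 11.39 in the Man-Su and Shin-Hong normal arrays and a highest cold value of 10.79. The feature just outside had 0.5998, with 13.03 and 12.76 in the normal arrays and a highest cold value of 12.16. Another 173 features met the margin in 7 of the 8 cold arrays. The array that kept them out was Shin-Hong cold 60 min for 69 of them and Man-Su cold 120 min for 38. The remaining 6 arrays accounted for 4 to 22 each.

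The members were mostly of middling brightness. Their mean level in the normal arrays had a median of 12.45 log2 units, against 12.01 over all features, and 122 of 179 lay above that second value. The rule selected 0.125% of features with a normal level up to 11, 0.671% of those from 12 to 13 and 0.129% of those above 14. Members at either end were the exception: 6 had a normal level below 10 and 5 a level above 14. In 2 members a cold value came within 1 log2 unit of the random-sequence control, where signal and background are hard to separate, and no member did so in a normal array. By probe number the set did not stand out, with 7 probes in 178 members and 6 in 1, against 7 in 98.4% of all features.

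Averaged over the 8 cold arrays, the median distance of a member from its normal mean was -1.17 log2 units, or 2.25-fold lower. The quartiles lay at -1.37 and -1.01, and the range was -2.42 to -0.74. Over all features this difference had a median of 0.02. Of the 179, 141 lay more than 1 log2 unit below normal, 24 more than 1.5 and 3 more than 2. In fold terms the quartiles were 2.02 and 2.58 times below normal, so deep losses were few. The raised set was displaced further, by a median of 1.44 log2 units, but the 2 sets were unlike. Its median normal level was 10.41, against 12.45 in the members. Its SD over the 8 cold arrays had a median of 0.31, against 0.22, and wider spread needs a larger distance to meet either rule.

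**Figure D2:**
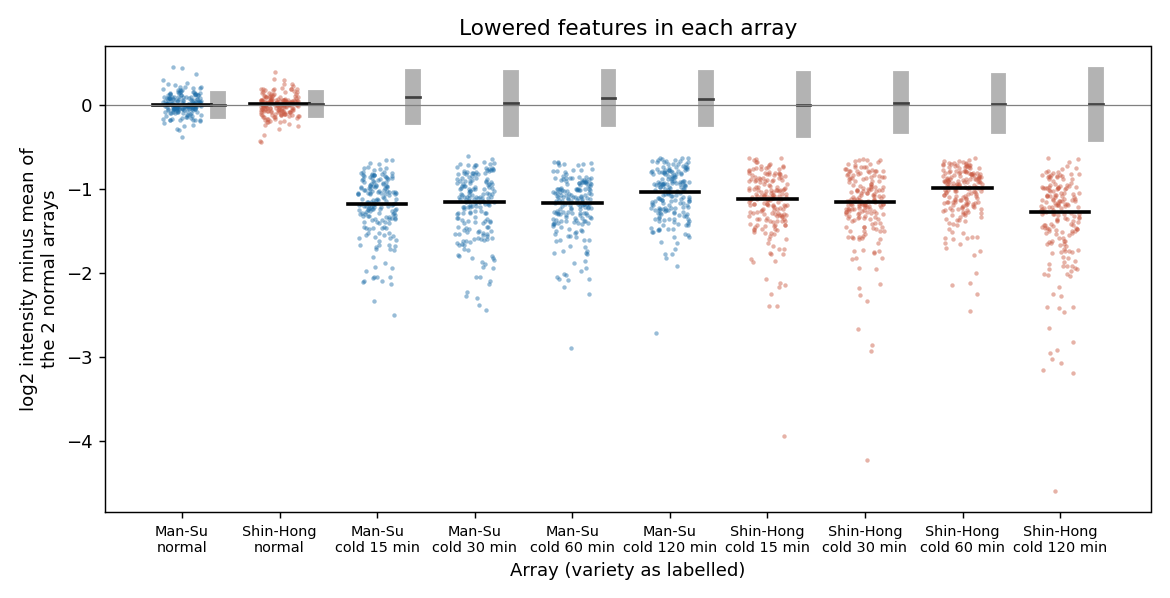
Log2 intensity of the 179 members in each array minus the mean of the 2 normal arrays, 1 point per member, with black bars at the members' medians. Grey boxes give the quartiles and median of all features. Medians of the members lie between -1.28 and -0.99 in the cold arrays, and all features stay near 0.

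The 2 normal arrays read nearly the same for the members. Their difference, Shin-Hong minus Man-Su as labelled, had a median of 0.01 log2 units, and its size had a median of 0.126 against 0.306 over all features. In 8 members (4.47%) the normal arrays differed by over 0.5 log2 units, against 30.0% of all features. The rule takes the lower normal array, which favours features with 2 like normal values. The lower of the 2 was the Man-Su array for 91 members and the Shin-Hong array for 88.

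Brapa_ESTC017928 had the widest margin, 1.43 log2 units. It read 12.84 in Man-Su normal and 12.94 in Shin-Hong normal. In Man-Su it read 10.84, 11.04, 10.81 and 10.97 at 15, 30, 60 and 120 min, and in Shin-Hong 10.82, 10.93, 11.41 and 10.23. The Man-Su cold arrays lay close together, whereas Shin-Hong was highest at 60 min and lowest at 120 min. The cold mean was 10.88 ± 0.33 (SD, n = 8), 4.03-fold below normal.

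Brapa_ESTC004116 was next, with a margin of 1.42 log2 units. It read 12.98 in Man-Su normal and 13.00 in Shin-Hong normal. In Man-Su cold it read 11.40, 11.34, 11.36 and 11.56 at the 4 times in order, and in Shin-Hong cold 10.82, 10.13, 10.84 and 10.81. Each Shin-Hong cold array lay below each Man-Su cold array, while the normal arrays were level. The cold mean was 3.88-fold below normal, at 11.03 ± 0.47 (SD, n = 8).

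The next question was whether the members kept changing between 15 and 120 min. The rule itself keeps every member low at all 4 times, so only the size of the distance can vary here. The median difference from normal, over the mean of both varieties, was -1.15 log2 units at 15 min, -1.18 at 30 min, -1.09 at 60 min and -1.17 at 120 min. Over all features the medians at these times were 0.02 to 0.03. The same normal arrays serve all 4 values, so they are not independent. The rule puts a ceiling on the highest cold array and does not name a time.

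Single arrays moved the 60 and 120 min medians more than time did. By array, the median was -0.99 in Shin-Hong cold 60 min and -1.17 in Man-Su cold 60 min. At 120 min it was -1.28 in Shin-Hong and -1.05 in Man-Su. At 15 and 30 min the medians of both varieties lay between -1.18 and -1.13.

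No course over time passed the test. The slope per doubling of cold time was fitted to the 8 cold values of a feature, allowing for variety (limma, Benjamini-Hochberg over all features). It was called for 0 of 179 members, against 0.0841% of all features. At an unadjusted p under 0.05 there were 7 members, which is 3.91% against 12.6% of all features. Of these, 2 had a positive slope (1.12% of members, against 6.28% of all features) and 5 a negative one (2.79%, against 6.35%). The test for any difference between the 4 times called 0 members against 0.00841% of features. At an unadjusted p under 0.05 it had 1 member (0.559%), against 6.36% of features. Taken step by step, limma called 0 members and 0% of features for 30 against 15 min, 60 against 30 min and 120 against 60 min, with 0, 1 and 8 members at an unadjusted p under 0.05. These are 0%, 0.559% and 4.47% of members, against 1.19%, 2.62% and 6.87% of all features. From 15 to 120 min it called 0 members against 0.0715% of features, with 5 members (2.79%) at an unadjusted p under 0.05 against 10.7% of features. With an intensity trend and a robust prior, limma called 0 members for the slope against 1.02% of features, for any difference against 0.637%, and for 120 against 15 min against 1.29%. A member with widely spread cold arrays needed a deeper loss to meet the rule, so these low shares are partly built in.

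The members' slopes had a median size of 0.056 log2 units per doubling, close to the 0.063 over all features. With sign, they had a median of 0.01 log2 units per doubling, ran from -0.30 to 0.17, and were positive in 96 members and negative in 83. In 145 members the slope lay between -0.1 and 0.1. Within Man-Su 12 members increased and 6 decreased at every step, and within Shin-Hong 3 increased and 13 decreased. In 0 members did both varieties increase at every step, and in 0 did both decrease. The counts in this paragraph were not made over all features, so they do not set the members apart.

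Brapa_ESTC027541 had the steepest positive slope, 0.17 ± 0.07 log2 units (SE over 8 arrays) for each doubling of time, with a limma adjusted p of 0.364. It read 10.25, 10.78, 10.81 and 11.23 in Man-Su and 10.96, 10.97, 10.80 and 11.14 in Shin-Hong at 15, 30, 60 and 120 min. Its normal values were 12.28 in Man-Su and 12.36 in Shin-Hong, so at 120 min it still stood -1.13 log2 units from normal. The slope was 0.09 without Man-Su cold 15 min and 0.11 without Man-Su cold 120 min.

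Brapa_ESTC005541 followed with 0.16 ± 0.08 log2 units (SE over 8 arrays) for each doubling of time, with a limma adjusted p of 0.473. It read 11.41, 11.67, 11.65 and 11.99 in Man-Su cold and 11.21, 11.09, 12.02 and 11.39 in Shin-Hong cold, in order of time. Its normal values were 12.82 in Man-Su and 12.67 in Shin-Hong. The 60 min array was the high one in Shin-Hong and the 120 min array in Man-Su.

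**Figure D3:**
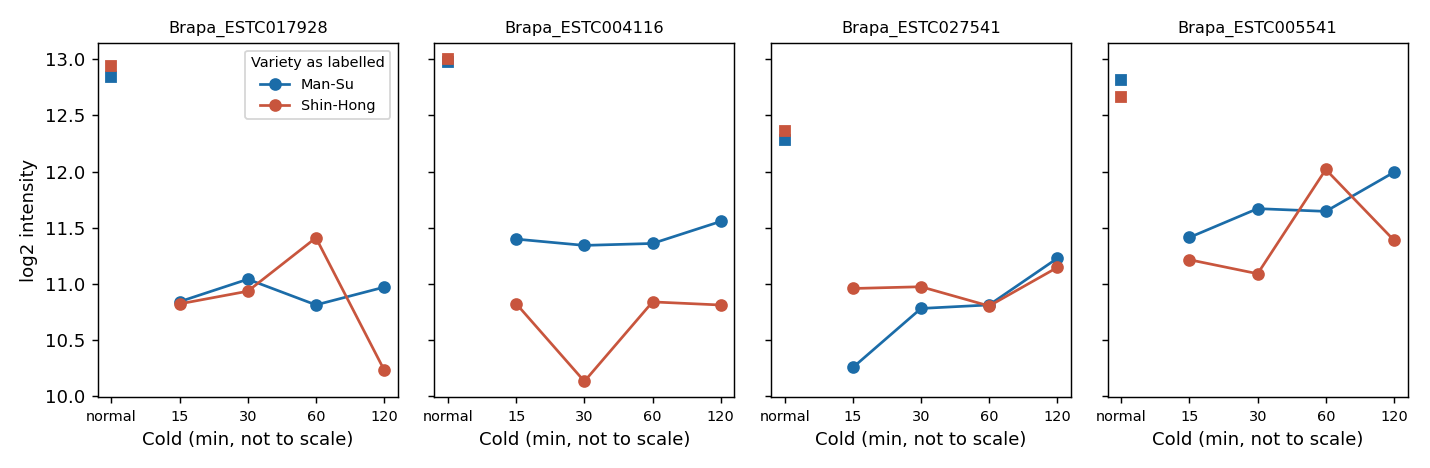
Log2 intensity of 4 members in the normal arrays (squares) and at 15, 30, 60 and 120 min of cold (circles, axis not to scale), by variety as labelled. Each point is 1 array. All cold points lie below both squares, and Brapa_ESTC004116 parts the varieties at every time.

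The steepest negative slope, -0.30 ± 0.07 log2 units per doubling, also missed the threshold (SE, n = 8; limma adjusted p = 0.149). That member read 10.57, 10.19, 9.40 and 9.57 in Man-Su and 10.95, 10.82, 10.71 and 10.27 in Shin-Hong at the 4 times. Both varieties were lower at 120 than at 15 min, and its distance from normal went from -1.54 to -2.37 log2 units.

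The varieties were then compared within the cold arrays, where the doubtful normal labels do not enter. Arrays labelled Shin-Hong were set against those labelled Man-Su with time as a block (limma, Benjamini-Hochberg over all features). In 14 members (7.82%) the varieties differed, against 22.3% of all features. Of the 14, 3 were higher in Shin-Hong, which is 1.68% of the 179 members against 10.8% of all features. The other 11 were lower, which is 6.15% of members against 11.5%. On quantile normalized values 5 were higher and 11 lower, with 25.6% of all features called. On the deposited values, the 11 differed by -2.78 to -0.49 log2 units and the 3 by 0.52 to 0.76. Over the 179 members the difference had a median of 0.01, and over all features -0.05. As with time, the rule works against members whose varieties lie far apart.

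Leaving out single arrays changed these counts, and the calls over all features with them. Without Shin-Hong or Man-Su cold 15 min, 0 members were higher and 2 lower in Shin-Hong, with 3.56% of all features called. Without either 60 min array, the counts were 0 and 4, with 3.54% of all features. Without either 120 min array they were 16 higher and 10 lower, with 26.6% of all features. Leaving out 1 array of a time also removes its partner from this comparison, since time is a block. With the level of the control features as a term, 2 were higher and 4 lower, with 8.39% of all features called.

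The member with the widest difference stood much lower in Shin-Hong. It read 9.34, 9.05, 10.83 and 8.68 in Shin-Hong and 12.48, 12.38, 12.24 and 11.93 in Man-Su at 15, 30, 60 and 120 min. The normal arrays read 13.11 in Shin-Hong and 13.45 in Man-Su, both above all cold arrays. Shin-Hong lay 2.78 ± 0.33 log2 units lower in cold (SE, n = 4 and 4; limma adjusted p = 0.00466), and lower at all 4 times. With an array left out the limma adjusted p was 0.00337 to 0.0294. This member also had the deepest mean loss of the set, 5.34-fold. Against a normal mean of 13.28, its cold mean was 9.48 in Shin-Hong and 12.26 in Man-Su, so both were lower and Shin-Hong more so.

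Brapa_ESTC004116 was among the 11, with cold means of 10.65 ± 0.35 in Shin-Hong and 11.41 ± 0.10 in Man-Su (SD, n = 4 each). Shin-Hong minus Man-Su was -0.76 ± 0.15 log2 units (SE; adjusted p = 0.0199 by limma), in the same direction at all 4 times. The limma adjusted p was 0.0817 without either 15 min array and 0.0758 without either 60 min array. Brapa_ESTC017928 differed by -0.07 ± 0.21 (SE, limma adjusted p = 0.837), which misses the threshold and does not show that the varieties were alike.

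In the other direction, the largest difference was 0.84 ± 0.37 log2 units (SE over 4 and 4 arrays), with a limma adjusted p of 0.137. That member read 11.28, 11.14, 11.23 and 10.28 in cold Shin-Hong and 9.51, 10.35, 9.84 and 10.87 in cold Man-Su, in order of time. Shin-Hong was higher up to 60 min and lower at 120 min. Without either 120 min array the difference was 1.32 ± 0.21 (SE, limma adjusted p = 0.0165). It was 0.53 without either 15 min array (limma adjusted p = 0.42) and 0.66 without either 60 min array (limma adjusted p = 0.395).

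**Figure D4:**
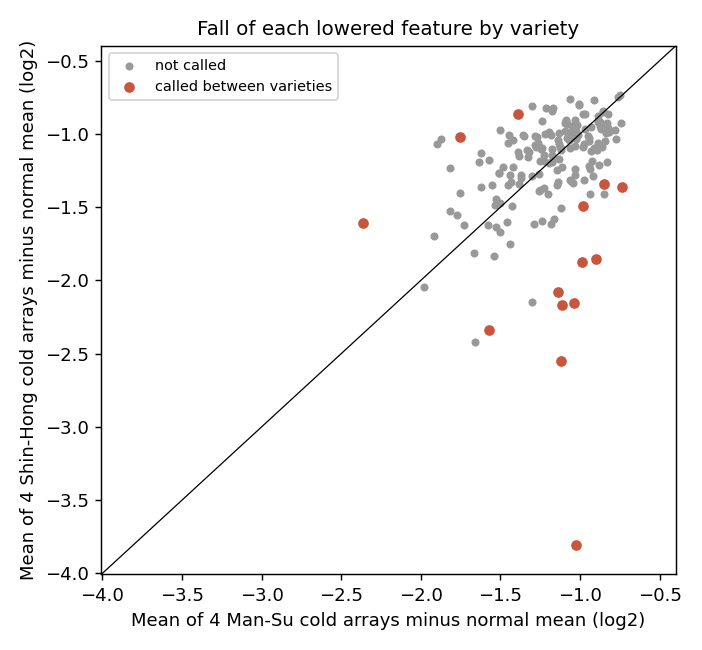
Mean of the 4 Shin-Hong cold arrays against mean of the 4 Man-Su cold arrays for each member, both minus the mean of the 2 normal arrays, in log2 units. The line marks equal values. Of the 14 members called between varieties (red), 11 lie below the line and 3 above it.

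In 19 members (10.6%) the 4 Shin-Hong and 4 Man-Su cold arrays did not overlap, against 24.7% of all features. Shin-Hong was the higher variety in 6 of them and the lower in 13. In the normal arrays, 9 of the 14 called members differed in the same direction as in cold and 5 in the opposite one, by the labels as given. Among all 10612 features called, the same direction was seen in 16.5%. The normal differences of the 14 members were small, from -0.34 to 0.21 log2 units. Against its own labelled normal array, the median difference was -1.12 in Shin-Hong and -1.17 in Man-Su. With the 2 normal arrays exchanged between varieties the medians were -1.13 in both.

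The sign of the variety difference depended on time. Shin-Hong minus Man-Su had a median over members of 0.07 log2 units at 15 min and -0.02 at 30 min. It was 0.16 at 60 min, with 124 of 179 members higher in Shin-Hong, and -0.21 at 120 min, with 142 lower. Over all features the medians at these times were -0.05, 0.01, -0.06 and -0.03. Of the 47548 features, 22046 were higher in Shin-Hong at 60 min and 25320 lower at 120 min. With 1 array per variety and time, these values have no replicate check, and time cannot be told apart from the single array.

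**Figure D5:**
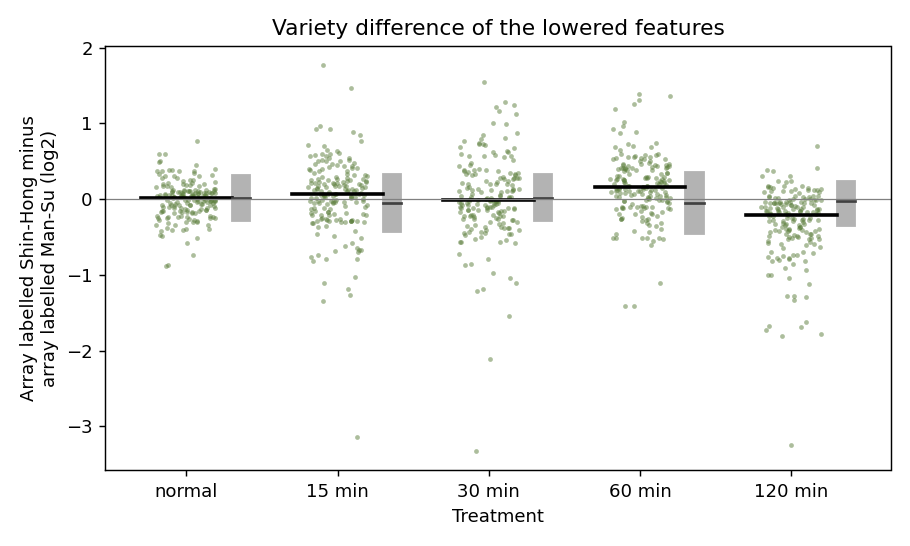
Array labelled Shin-Hong minus array labelled Man-Su in log2 units for the 179 members, in the normal arrays and at each cold time. Black bars mark the members' medians, and grey boxes the quartiles and median of all features. The median is 0.16 at 60 min and -0.21 at 120 min.

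Most members were at their lowest Shin-Hong value at 120 min, and many at their highest Man-Su value then. The lowest of the 4 Shin-Hong cold arrays was the 120 min array in 101 members, and the highest was the 60 min array in 86. In Man-Su the highest was the 120 min array in 84 members and the lowest the 15 min array in 67. These 4 counts were not made over all features, so whether they are particular to the members is not known. The slope in Shin-Hong was below that in Man-Su in 136 of 179 members, against 24254 of 47548 features. The median slope difference was -0.10 log2 units per doubling in the members and -0.0035 over all features. Limma called a slope difference in 0 members, and 0% of all features, with 6 members at an unadjusted p under 0.05 (3.35%, against 4.46% of all features). With an intensity trend and a robust prior limma called 0 members and 0% of features. On simulated data this test found no planted difference in slope, so its count of 0 says little. The members' median slope difference rested on Shin-Hong cold 120 min: it was 0.0044 without that array and -0.045 without Man-Su cold 120 min.

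The members' spread over the cold arrays was somewhat below that of all features, and the rule works against widely spread cold values. The SD over 8 arrays had a median of 0.22 log2 units, against 0.29 over all features. The distance from the lowest to the highest cold array had a median of 0.68, against 0.82 over all features. It stayed under 0.5 in 44 members and under 1 in 139. Within a variety the SD over 4 cold arrays had a median of 0.20 in Shin-Hong and 0.18 in Man-Su. Over all features these medians were close, 0.22 and 0.18. With 1 array per group, this spread holds time, array and plant differences together.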

How the data were processed

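Per the labels, total RNA was labelled with Cy3 and hybridised to one-colour NimbleGen arrays, 1 per variety and treatment. Each feature has 1 deposited intensity on a linear scale, to which the authors applied RMA (background correction, normalization between arrays and summary over probes), per the submitters' processing notes. Not given in the sources used here are the software, its version, scan batches and which arrays entered 1 normalization. A series-wide deposited table held the same intensities to within 0.005.

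Intensities were taken to log2 and used as deposited, because they were already normalized and the rule names them. The 6 control features were not tested themselves, and the main tests used no control level and no filter. The mean level of the 6 entered as a term only in the alternative with a control-level term. Tests used limma 3.58.1 in R 4.3.3 (lmFit, eBayes) over all 47548 features in the 8 cold arrays, with a Benjamini-Hochberg adjusted p under 0.05 as a call: slope per doubling of time with variety (5 residual degrees of freedom), time as a factor with variety (3, also for the variety difference), and the difference of slopes (4). The spread comes from variety-by-time differences, which may be technical, and the number of arrays limits the precision. Each test was tried on simulated data, where the slope-difference test found no planted change and the test for any difference between times found only some of the larger ones.

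The members, the comparisons and the alternatives were chosen with earlier results of these data known. The IDs printed are the 2 members with the widest margin and the 2 with the steepest positive slope. Other members were taken by the same kind of rule and are described without ID. Gene lists named for the case that features had gene names could not be used.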

Additional observations from a re-analysis of the deposited data

Results flagged for a closer look

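Each series of 4 or 8 cold arrays was checked for a single array far from the others, over the members' median, the controls and the 7 members described, 30 checks in all. Chance marks about 1 in 20 such groups, and 4 stood out here. They share arrays, so they are not independent. The 7 members were picked as extremes of these same cold values, so the rate of 1 in 20 need not hold for them. The random-sequence control was highest in Man-Su cold 30 min among the Man-Su cold arrays, at 5.63 log2 units. Brapa_ESTC004116 was lowest in Shin-Hong cold 30 min among the Shin-Hong cold arrays, at 10.13. Brapa_ESTC027541 was lowest in Man-Su cold 15 min among all 8 cold arrays, at 10.25. The member with the largest excess in Shin-Hong was lowest in Shin-Hong cold 120 min among the Shin-Hong cold arrays, at 10.28. The members' median was not marked in any array.

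The barcode controls enter the tests of the features only through the control-level term. They averaged 8.55 log2 units in the 8 cold arrays and 8.01 in the normal arrays. They ranged from 7.82 in Man-Su cold 120 min to 8.98 in Shin-Hong cold 120 min.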

How the results depend on the processing

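The set held 179 features, 255 on quantile normalized values (178 of the 179 among them), 512, 57 and 18 at margins of 0.4, 0.8 and 1.0, and 183 to 983 with an array left out. It can only grow with fewer arrays, to 983 without Man-Su normal, 570 without Shin-Hong normal and 248 without Shin-Hong cold 60 min. The members' median difference from normal, with an array left out, was -1.19 to -1.14 log2 units over all cold arrays, -1.18 to -1.13 at 15 min, -1.18 to -1.16 at 30 min, -1.17 to -0.99 at 60 min and -1.28 to -1.05 at 120 min. The variety calls were 3 higher and 11 lower in Shin-Hong, with 22.3% of all features called. On quantile normalized values they were 5 higher and 11 lower (25.6% of features). With an intensity trend and robust prior they were 5 and 13 (28.8%), and with the control-level term 2 and 4 (8.39%). With an array left out they were 0 to 16 higher and 2 to 11 lower (3.54% to 26.6% of features). Without both Man-Su cold 30 min and Shin-Hong cold 120 min, 31 were higher and 15 lower in Shin-Hong (43.8% of all features called), 3 members were called for any difference between times (3.06% of features), 1 for 30 against 15 min (0.0505%), 1 for 60 against 30 min (0.13%), 3 for 120 against 60 min (1.77%) and 3 for 120 against 15 min (3.84%), with 1 residual degree of freedom. Under every other alternative run, these 5 tests called 0 members, and the time trend called 0 under all of them. The median slope difference was -0.073 with the control-level term, -0.0057 without those 2 arrays and -0.12 to 0.0044 with an array left out. Brapa_ESTC017928 changed sign without being called: its slope, -0.06, was 0.11 without those 2 arrays and -0.10 to 0.10 with an array left out, and its variety difference, -0.07, was 0.065 with the control-level term, 0.29 without those 2 arrays and -0.29 to 0.16 with an array left out. The variety difference of Brapa_ESTC005541, -0.25, was 0.087 without those 2 arrays. The cause of these changes was not tested. No paired analysis was possible because the labels give no replicate numbers to pair by, while the variety test pairs arrays by cold time.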

Other observations

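Among the 179 members, 3 pairs carried consecutive ID numbers, and what the numbering follows is not given in the sources used here. In 1 pair the levels were nearly equal, with normal means of 15.66 and 15.60 log2 units and differences from normal of -1.72 and -1.64. In another the differences from normal were -1.67 and -1.68, from normal means of 12.62 and 13.04. In the third they were -0.999 and -1.26, from 11.93 and 13.11. Whether such features probe the same transcript was not tested.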
